A study of Oryza sativa Japonica Group with 4 samples.

Results

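Iron uptake and nicotianamine genes were examined in rice roots, namely the nicotianamine synthase genes NAS1, NAS2 and NAS3, the ferrous iron transporter gene IRT1 and the yellow stripe-like transporter genes YSL2 and YSL15. They were chosen by gene symbol or synonym. Of these 6 genes, 5 had a probe set in the array's annotation, 1 each, out of 17905 annotated genes and 57258 probe sets that were not array controls. YSL2 is not listed there and was not analysed here. The RNA came from roots of 17-day-old seedlings of Oryza sativa ssp. japonica, variety TNG67. All seedlings germinated in the dark for 3 days and spent 2 weeks in hydroponic solution lacking NH4NO3. They were then moved for 30 min to the same kind of solution (minus N, 2 arrays) or to one with 2.5 mM glutamine, an amino acid that can serve as nitrogen source (plus glutamine, 2 arrays). The numbers 1 and 2 mark biological repeats in each group, and the sources used here do not say how many seedlings made up a repeat. Each sample was read on 1 GeneChip Rice Genome Array, which gives 1 intensity per probe set.

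Grasses take up iron with secreted chelators. Nicotianamine synthase joins molecules of S-adenosylmethionine into nicotianamine, which carries metals inside the plant and is the precursor of the mugineic acid family of phytosiderophores. Rice secretes deoxymugineic acid, recovers its ferric iron complex through YSL15, and also takes up ferrous iron through IRT1. In rice, NAS1, NAS2, IRT1 and YSL15 are known as genes that iron deficiency induces in roots, and YSL2 as a transporter of metals bound to nicotianamine.

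The arrays differed in ways that bear on these genes. The median intensity over all probe sets was 19.7 to 22.2. The rice Gapdh control, which is used to judge RNA quality, had a 3′ signal over its 5′ signal of 6.94 and 6.20 in the arrays numbered 1 of minus N and plus glutamine, and 4.32 and 4.43 in those numbered 2. Both arrays numbered 2 were above both numbered 1 for 46.4% of all probe sets and below them for 18.2%. Of the 14 root marker symbols, 8 were matched. The brightest of them was LSI1, the silicon influx transporter of roots, at 7279.0 to 8999.3, and the dimmest was SCR1, at 11.7 to 14.9. Of the 15 symbols for green shoot tissue, 5 were matched. The brightest was CAB2R, a chlorophyll-binding protein gene, at 8605.5 to 10545.8, and the dimmest was CHLH, at 25.3 to 136.2. Seed markers were matched for 8 of 13 symbols, and 6 of these 8 lay below the array median in every array. GLB1 and GLUA2 were brighter, at 878.2 to 1173.8 and 235.9 to 290.5.

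The 3 nicotianamine synthase genes were lowest in minus N replicate 1 and highest in plus glutamine replicate 1. NAS1 differed 4.70-fold between those arrays, NAS2 2.64-fold and NAS3 1.72-fold. The second repeat did not show this, with NAS1 1.46-fold lower with glutamine, NAS2 1.04-fold lower and NAS3 1.07-fold higher. Over both repeats 0 of the 5 members passed the test, as did 0.0% of all probe sets, so this count says nothing particular about them. The order with minus N replicate 1 lowest and plus glutamine replicate 1 highest was seen in 2.22% of all probe sets, and it was picked out here after the values were seen.

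NAS1 had intensities of 31.8 and 100.9 in minus N replicates 1 and 2, and of 149.3 and 68.9 with glutamine. The plus glutamine arrays lay on either side of minus N replicate 2, so the groups overlapped. On the log2 scale the group means were 5.82 ± 1.18 (SD, n = 2) and 6.66 ± 0.79 (SD, n = 2), a difference of 0.84 (SE 0.65, 95% interval -0.79 to 2.47). Limma's test gave an adjusted p of 1. In the first repeat the log2 difference was 2.23, the 5th highest of all 57258 probe sets. In the second repeat it was -0.55, which ranked 1935th from the lowest. Without minus N replicate 1 the NAS1 difference was 0.0075, and without plus glutamine replicate 1 it was 0.28. In whole roots, fewer cells that express a gene and less of its RNA per cell cannot be told apart.

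NAS2 had intensities of 34.0 and 82.4 without nitrogen and 89.6 and 79.2 with glutamine. A single array stood apart, minus N replicate 1, while the other 3 lay within a narrow range. The log2 means were 5.73 ± 0.90 (SD, n = 2) and 6.40 ± 0.13 (SD, n = 2), and the difference was 0.67 (SE 0.44, 95% interval -0.45 to 1.79, limma adjusted p = 1). Within the first repeat the log2 difference was 1.40, the 38th highest of all probe sets, and within the second it was -0.06. Without minus N replicate 1 the NAS2 difference was 0.03. NAS1 and NAS2 are direct neighbours on chromosome 3 in the RefSeq annotation ASM3414082v1. Their transcripts are closely related, and cross-hybridisation between their probe sets was not tested.

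NAS3, which lies on chromosome 7, was the one member whose groups did not overlap. Its intensities were 315.4 and 400.5 without nitrogen and 543.9 and 428.1 with glutamine. Both plus glutamine arrays were therefore higher, by a wide margin in the first repeat and a small one in the second. The log2 means were 8.47 ± 0.24 (SD, n = 2) and 8.91 ± 0.24 (SD, n = 2), so plus glutamine was 1.36-fold higher (log2 difference 0.44, SE 0.25, 95% interval -0.20 to 1.08, limma adjusted p = 1). Of all probe sets, 8.36% were higher with glutamine without overlap and 8.22% lower, so a count of 1 among 5 members says nothing particular about them. Within the repeats the log2 difference of NAS3 was 0.79 and 0.10, and 21.9% of all probe sets were likewise higher in both repeats, with 23.0% lower in both. It ranked 367th from the highest in the first and 21090th in the second.

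**Figure D1:**
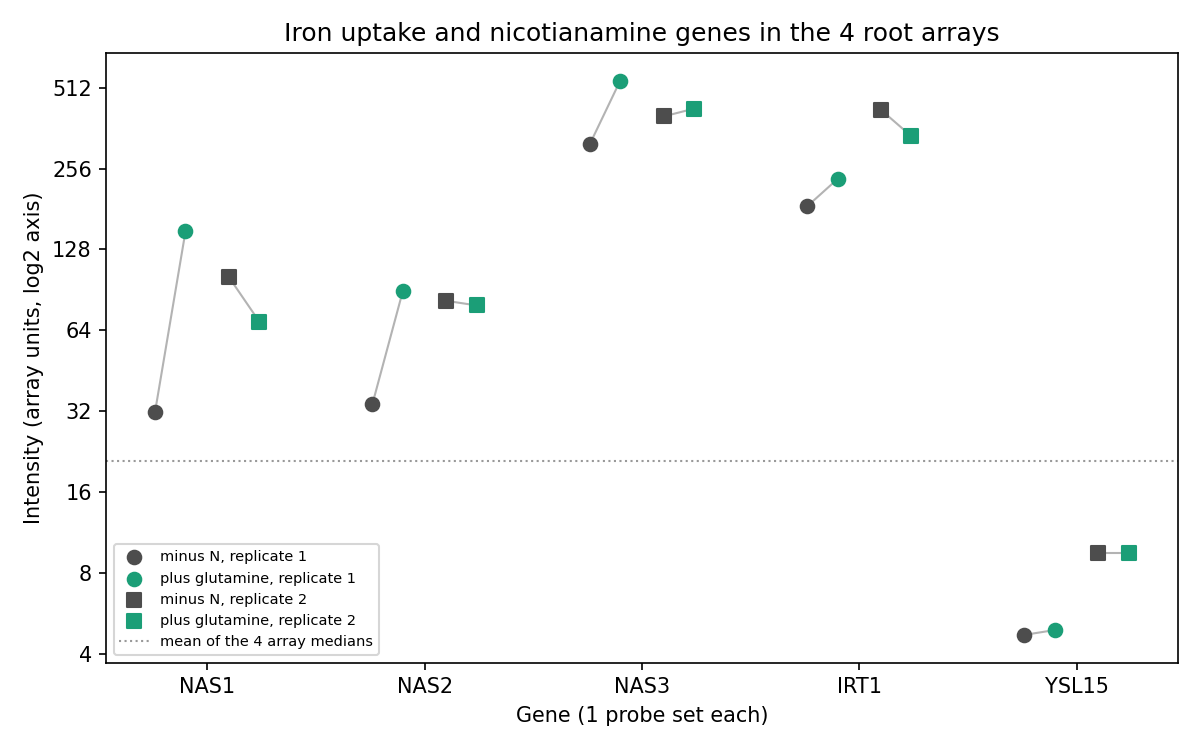
Intensity of the 5 measured genes in each array, on a log2 axis in array units. Circles are replicate 1 and squares replicate 2, grey is minus N and green plus glutamine, lines join the arrays of the same number, and the dotted line is the mean of the 4 array medians. NAS1, NAS2 and NAS3 are lowest in minus N replicate 1 and highest in plus glutamine replicate 1, whereas IRT1 and YSL15 are higher in both arrays numbered 2.

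IRT1, the transporter of ferrous iron, was separated by repeat and not by treatment. Its intensities were 185.2 and 423.5 without nitrogen and 234.2 and 337.6 with glutamine, so both arrays numbered 2 were higher than both numbered 1. The log2 means were 8.13 ± 0.84 (SD, n = 2) and 8.14 ± 0.37 (SD, n = 2), and the difference was 0.0058 (SE 0.45, 95% interval -1.12 to 1.14, limma adjusted p = 1). Its direction turned with scaling, to -0.0033 after median centring and -0.015 after quantile normalization. The first repeat was 1.26-fold higher with glutamine and the second 1.25-fold lower. Between the repeats IRT1 was 2.29-fold higher in number 2 without nitrogen and 1.44-fold higher with glutamine.

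YSL15, the importer of ferric iron bound to deoxymugineic acid, gave the weakest signal of the members. Its intensities were 4.7 and 9.5 without nitrogen and 4.9 and 9.5 with glutamine. In the arrays numbered 1 these lay below the 20th percentile of all probe sets, which was 6.9 and 6.7, and in those numbered 2 above it, at 7.5 and 7.6. No detection calls were used, so how far this signal lies above background is unknown. The log2 means were 2.74 ± 0.72 (SD, n = 2) and 2.77 ± 0.68 (SD, n = 2), a difference of 0.03 (SE 0.47, 95% interval -1.16 to 1.22, limma adjusted p = 1). With values under the 20th percentile raised to it, the difference was -0.02. Within the repeats it was 0.06 and 0.00. The step from number 1 to number 2, 2.02-fold without nitrogen and 1.94-fold with glutamine, was larger than either.

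The brightness of the members within the arrays bears on how well each was measured. NAS3 lay at the 87.2 to 91.9 percentile of all probe sets and IRT1 at the 81.3 to 88.7 percentile. NAS1 ranged from the 57.8 to the 78.4 percentile, NAS2 from 58.8 to 72.0, and YSL15 from 4.63 to 29.0. Probe sets differ in how strongly they bind their target, so these positions describe signal and give no order of transcript abundance between genes.

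**Figure D2:**
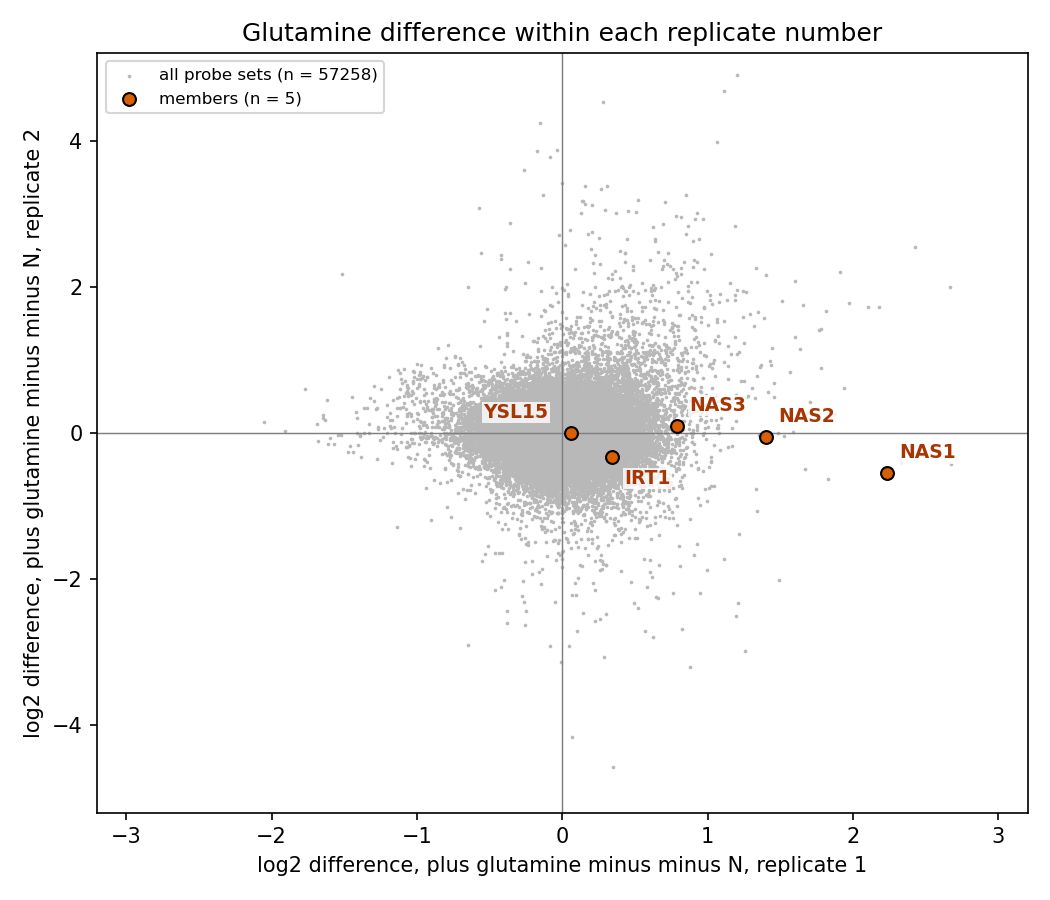
Log2 difference between plus glutamine and minus N within replicate 1 (x axis) and within replicate 2 (y axis) for all 57258 probe sets in grey and the 5 members in orange. NAS1 lies at 2.23 and -0.55 and NAS2 at 1.40 and -0.06, far to the right of most probe sets and close to or below 0 on the other axis.

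A fold of 2 or more in favour of glutamine was rare in the first repeat, at 0.225% of probe sets, and reached by 1.13% in the second. NAS1 and NAS2 were among the 129 probe sets of the first repeat. Of these 129, 53 were also at least 2-fold higher in the second repeat, and 27 were lower there. NAS1 and NAS2 belonged to the 27. Over all probe sets, 20.5% were higher in the first repeat and lower in the second. NAS1, NAS2 and IRT1 had this pattern, and whether the repeats differ in their response was not tested, since each repeat holds 1 array per group.

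Some marker genes were also low in minus N replicate 1. It was the lowest array for 4 of 5 green shoot markers, 4 of 8 root markers and 3 of 8 seed markers, and for 38.7% of all genes. The summed green shoot markers were 9696.2 and 12537.0 without nitrogen and 11539.2 and 11509.3 with glutamine. Of these 5 markers, 0 lay below the array median in every array. RBCS, the small subunit of Rubisco, stood at 300.2 and 1031.7 without nitrogen and 635.6 and 874.8 with glutamine, so it was likewise low in minus N replicate 1. The green marker GLO1, a glycolate oxidase gene, was not, at 666.2 and 662.2 without nitrogen and 722.1 and 409.8 with glutamine. The summed root markers were 8659.6 and 11432.0 without nitrogen and 8901.4 and 11413.6 with glutamine, most of it from LSI1. Both arrays numbered 2 were above both numbered 1 for 5 of the 8 root markers and below for 1, SCR1, against 50.4% and 15.4% of all genes. CASP1, a gene of the root Casparian strip, ran from 60.1 in minus N replicate 1 to 215.2 in minus N replicate 2, with 98.2 and 97.0 between them. The summed seed markers lay between 1169.3 and 1511.0. The part of tissue composition in the results was not tested.

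The members' profiles were compared by the Euclidean distance between log2 values over the 4 arrays, each centred on its gene's mean. IRT1 and YSL15 were the closest pair of members, at 0.33. NAS2 was nearest to NAS3, at 0.71, and to NAS1, at 0.74, and the widest distance was that between NAS1 and YSL15, at 1.74. Of 2453 other named genes, the one most like NAS1 was NRT2.2, a nitrate transporter gene, at a distance of 0.89, which is wider than that to NAS2. NRT2.2 had intensities of 58.0 and 190.7 without nitrogen and 211.9 and 227.0 with glutamine, and so lacked the drop of NAS1 in plus glutamine replicate 2. CYCD2-2, of the D-type cyclins, and FIB, an auxin synthesis gene, followed at 1.03 and 1.04. For NAS2 the nearest were the heat shock protein gene HSP16.0 (0.31), the transcription factor gene DREB1B (0.39) and CYCD2-2 (0.40). NAS3 had closer matches in OsC3H23, a zinc finger gene, at 0.08, 4CL.2 of phenylpropanoid synthesis at 0.12 and the response regulator gene OsRR4 at 0.15. IRT1 was most like the cellulose synthase gene CESA2 (0.05), GLO5 (0.07) and the ABC transporter gene ABCC13 (0.10). YSL15 was most like LG1 (0.03), BSL2 (0.04) and RTEL1 (0.07), all higher in number 2. YSL15 and LG1 were both dim, below the 20th percentile in the arrays numbered 1 and above it in those numbered 2. How far their likeness reflects transcript levels was not tested. With 4 arrays these distances are a description only.

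Other genes of the pathway were taken from 5 lists matched by name, with the members left out. This gave 58 genes, of which 0 passed limma's test after adjustment. Over all 57258 probe sets 0.0% passed, and 0.882% had an unadjusted p under 0.05. Without overlap of the groups, 2 of the 58 genes were higher with glutamine and 4 lower, against 10.1% and 9.03% of all 17905 genes. Their median log2 difference was -0.06, beside -0.01 over all genes.

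The steps that lead from nicotianamine to the secretion of deoxymugineic acid were sparsely covered. NAAT1, the nicotianamine aminotransferase, had intensities of 221.7 and 325.5 without nitrogen and 236.5 and 260.1 with glutamine, a log2 difference of -0.12 (SE 0.27). Its groups overlapped, and minus N replicate 1 was its lowest array too. A record with the symbol tom2 on chromosome 10 differed by 0.16 (SE 0.27), and one with the symbol tom1 on chromosome 2 by -0.09 (SE 0.23). Whether these symbols stand for the phytosiderophore efflux transporters TOM1 and TOM2 or for other genes of that name is not settled by the annotation.

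Among the supply of S-adenosylmethionine and the enzymes that use it, 10 genes were matched. ACS2, a synthase of the ethylene precursor ACC that draws on the same substrate as nicotianamine synthase, stood at 42.2 and 48.6 without nitrogen and at 75.2 and 97.8 with glutamine. Both plus glutamine arrays were above both minus N arrays, and the repeats were alike, with log2 differences of 0.83 and 1.01. The mean difference was 0.92 (SE 0.24, unadjusted p = 0.0112, limma adjusted p = 1), and ACS2 was the one gene of this list without overlap. ARD1, an enzyme of the methionine salvage cycle that recycles the by-product of nicotianamine synthesis, differed by -0.16 (SE 0.23). Its record also carries heat shock factor synonyms. The S-adenosylmethionine synthetase genes SAM1 and SAM2 were bright and nearly level, SAM1 from 9514.5 to 11107.3 and SAM2 from 3221.0 to 3450.4 over the 4 arrays. As a whole the 10 genes had a median log2 difference of -0.06.

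Of the regulators of the iron deficiency response, IDEF1 and IRO3 were matched. IDEF1, which binds iron deficiency-responsive promoter elements, had intensities of 58.7 and 86.3 without nitrogen and 52.8 and 57.8 with glutamine. The groups did not overlap, with a log2 difference of -0.37 (SE 0.27, limma adjusted p = 1). The difference was -0.15 in the first repeat and -0.58 in the second. IRO3, a basic helix-loop-helix repressor whose record also lists the name OsIRO2, was level, at 126.2 and 143.9 without nitrogen and 126.2 and 144.7 with glutamine. No gene of the iron storage list was matched by name.

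**Figure D3:**
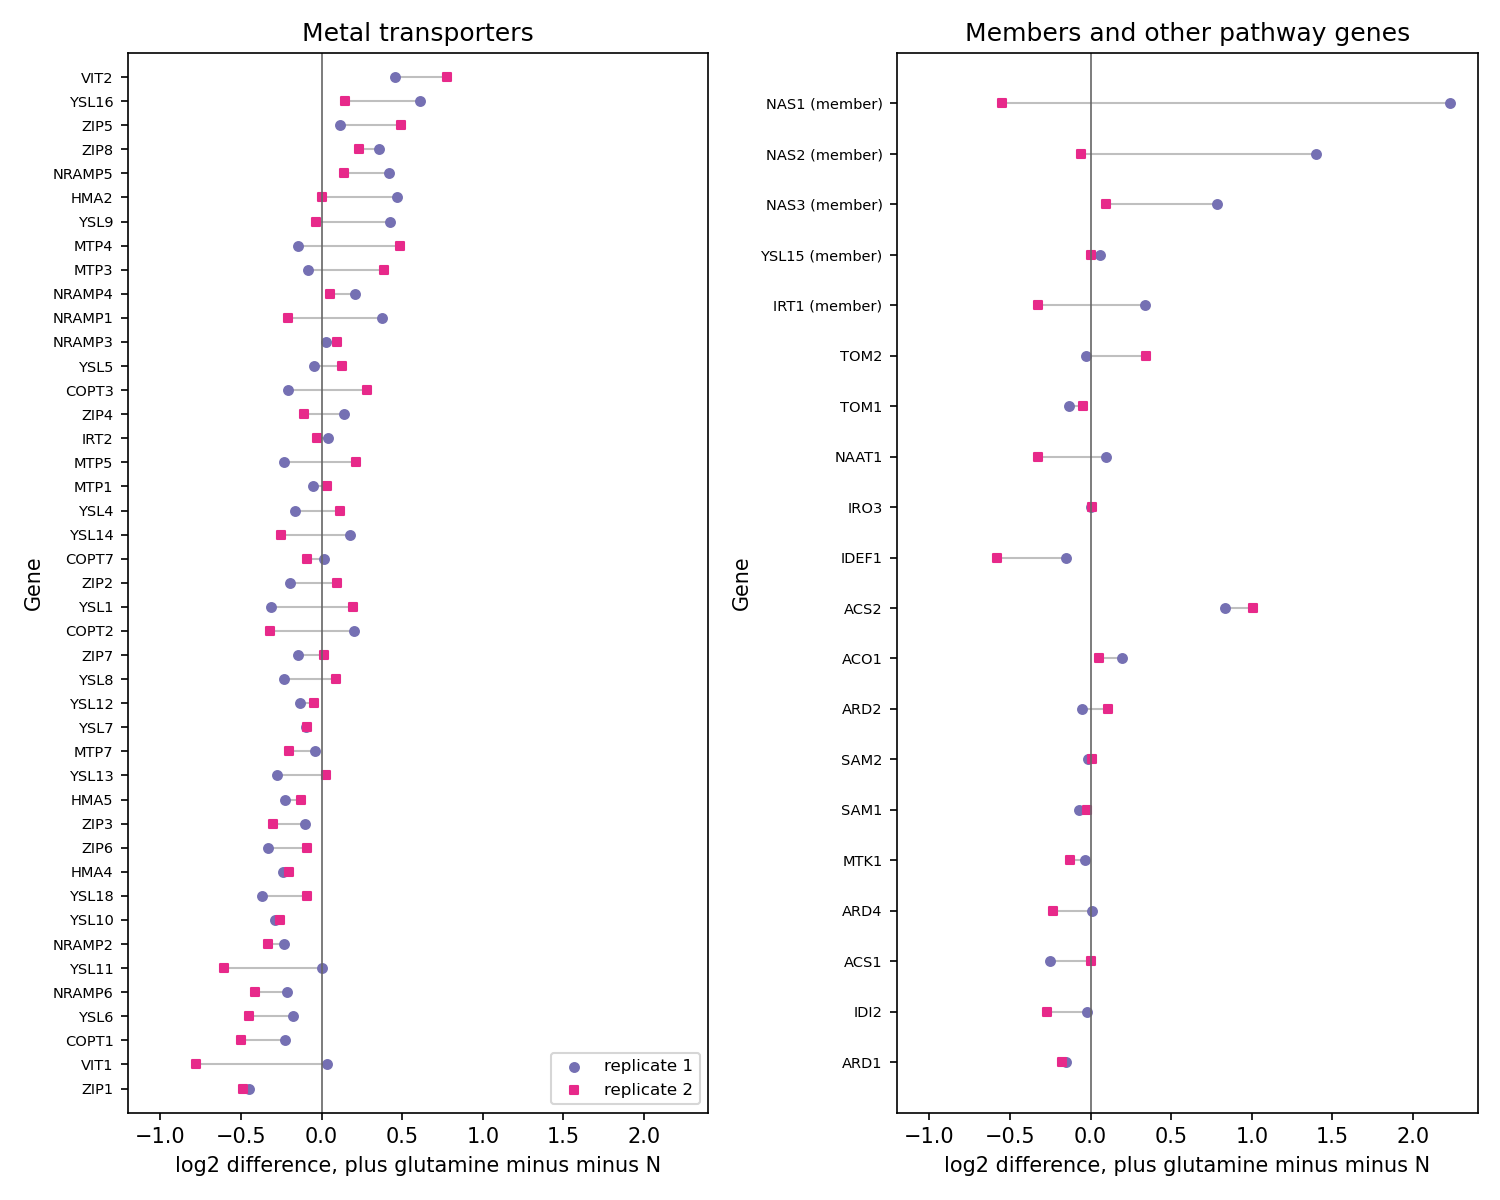
Log2 difference between plus glutamine and minus N within replicate 1 (circles) and replicate 2 (squares) for 43 metal transporter genes (left) and for the members and 15 other pathway genes (right). NAS1 and NAS2 have the widest gaps between the repeats, while ACS2 is near 0.83 and 1.01 in both.

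The metal transporter list held 43 genes beside the members. Without overlap, ZIP5 was higher with glutamine (log2 difference 0.31, SE 0.22) and NRAMP6, ZIP3 and MTP7 lower (-0.31, -0.20 and -0.12), which are named for their small number and were chosen after their values were seen. ZIP3, at 7.4 and 7.4 without nitrogen and 6.9 and 6.0 with glutamine, lay near the 20th percentile of its arrays, so its direction is uncertain. The list's median difference was -0.05, with -0.10 in the first repeat and -0.04 in the second. Over all genes these medians were -0.01, 0.02 and -0.04, in the same order. VIT2, a vacuolar iron transporter, had the highest difference of the list, 0.62 (SE 0.59), with intensities of 564.6 and 1220.0 without nitrogen and 774.6 and 2095.8 with glutamine. It was higher with glutamine in each repeat, by 0.46 and 0.78, but the step between the repeats was larger and the groups overlapped. ZIP1, of the zinc and iron regulated transporter family to which IRT1 belongs, had the lowest, -0.47 (SE 0.34), with -0.45 and -0.49 in the repeats. Its intensities were 365.1 and 572.0 without nitrogen and 267.4 and 407.8 with glutamine. The 14 YSL genes had differences from -0.31 to 0.38, and 7 of them lay below the array median in every array.

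The step between the repeats that IRT1 and YSL15 showed was common in this list. In 28 of the 43 metal transporters both arrays numbered 2 were above both numbered 1, and in 7 they were below, against 50.4% and 15.4% of all genes. NRAMP5, the manganese and cadmium importer of rice roots, had intensities of 163.1 and 478.5 without nitrogen and 218.1 and 526.4 with glutamine. HMA5, a copper transporter, had 146.2 and 397.3 without nitrogen and 124.9 and 363.1 with glutamine. IRT2, the second ferrous iron transporter, which lies near IRT1 on chromosome 3 with 2 annotated genes between them, went the other way. It stood at 61.5 and 25.3 without nitrogen and 63.2 and 24.8 with glutamine, so it was lower in both arrays numbered 2. NRAMP5, HMA5 and IRT2 were picked after their values were seen. The Gapdh ratio moved with the repeat number as well, and its part in these steps was not tested.

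**Figure D4:**
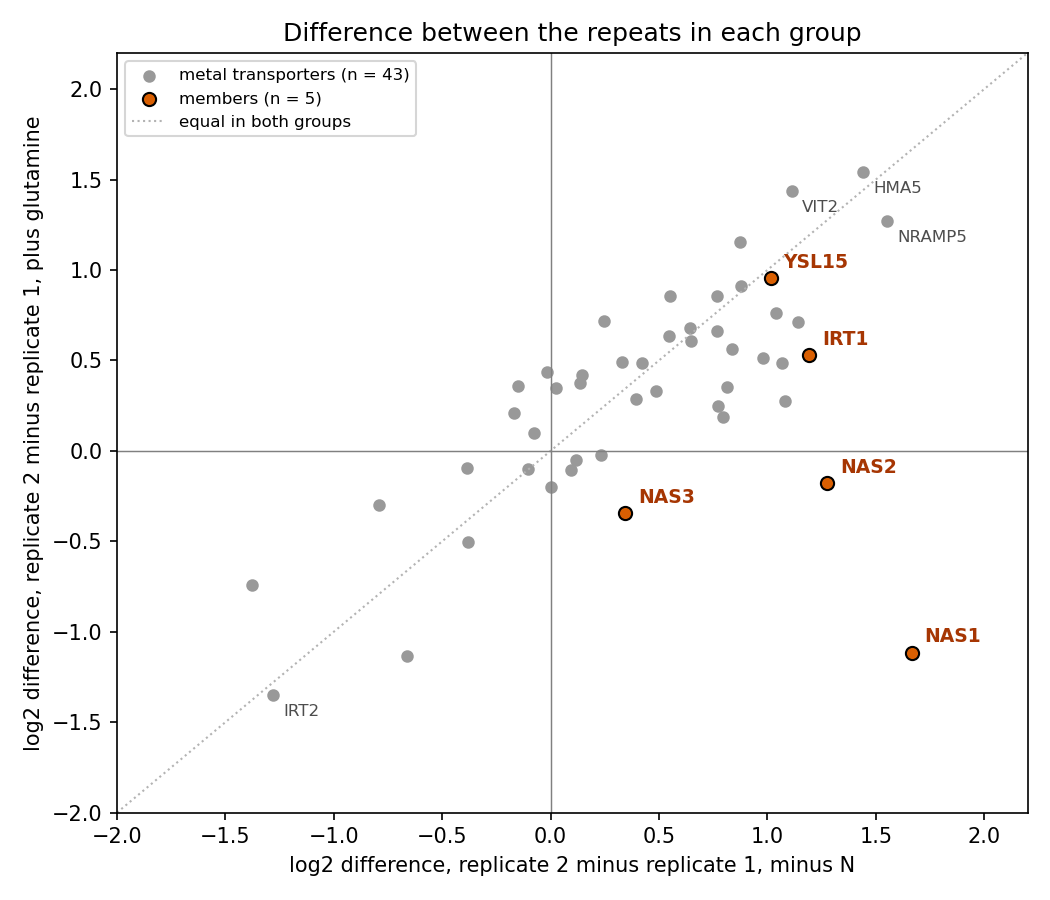
Log2 difference between replicate 2 and replicate 1 in the minus N group (x axis) and in the plus glutamine group (y axis), for 43 metal transporters in grey and the 5 members in orange, with a dotted line where both are equal. YSL15 and IRT1 lie among the transporters, IRT2 lies at the opposite end, and NAS1, at 1.67 and -1.12, lies farthest from the line.

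Between the repeats NAS1 changed direction with the group. It was 3.17-fold higher in number 2 than in number 1 without nitrogen (log2 1.67), and the log2 difference was -1.12 with glutamine. NAS2 was 2.42-fold higher in number 2 without nitrogen and differed by -0.18 on the log2 scale with glutamine. For NAS3 the same pair of log2 differences was 0.34 and -0.35, for IRT1 1.19 and 0.53, and for YSL15 1.02 and 0.96. With 2 arrays per group an exact permutation test of one gene cannot give a p below 0.333, so the number of arrays limits what can be said of each.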

How the data were processed

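The deposited table holds a linear intensity for every probe set in each array. The submitters' processing notes name GCOS and RMA, with no role or version. The sources used here do not give the scaling of the intensity values. log2 of the deposited values was taken with no further normalization, and the 123 control probe sets were left out. Probe sets were named by gene number through the RefSeq gene table of ASM3414082v1, with 1 gene for 22436 of them, several for 95 and none for 34727. The 22436 stand for 17905 genes, and 0 of the 95 held a member. A listed gene was read from its brightest probe set by mean.

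The comparison used lmFit and eBayes of limma 3.58.1 under R 4.3.3, with group as the only term. Its two-sided p-values received a Benjamini-Hochberg adjustment across the 57258 probe sets, with 0.05 as threshold, and intervals are at 95%. The fit was run on simulated data with less noise within groups than any member had here. That run checked the code and does not show how well the fit finds differences in these arrays. The members, lists and tests were chosen with earlier results of these data known. The rule for named genes took all members, the 3 most alike named genes per member, and from each list up to 4 genes without overlap and a log2 difference of at least 0.5, or else the 2 with the largest difference. Differences within each replicate number are single subtractions with no test. Alternatives covered the replicate number as a term, the variance prior, scaling, dim probe sets and each array left out. Figures were drawn with matplotlib 3.10.9.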

Additional observations from a re-analysis of the deposited data

How the results depend on the processing

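No member passed the adjusted threshold in any of the 11 alternatives, which gave 54 member values, and the lowest limma adjusted p was 0.999. NAS1, NAS2 and NAS3 stayed higher with glutamine in all 11 alternatives each, but several of these could not change the sign. The block, the variance prior, leaving out dim probe sets and the floor returned the main estimates of these genes unchanged. Only scaling and leaving out arrays could move them, and without minus N replicate 1 NAS1 and NAS2 were near level, at 0.0075 and 0.03. Leaving out 1 array gave 0.0075 to 1.67 for NAS1, 0.03 to 1.31 for NAS2, 0.27 to 0.61 for NAS3, -0.59 to 0.60 for IRT1 and -0.48 to 0.54 for YSL15 on the log2 scale, and -0.18 to 0.10 for the median of the pathway lists. The lowest values of NAS1, NAS2, IRT1 and YSL15 came without minus N replicate 1. IRT1 also reversed after median centring (-0.0033) and quantile normalization (-0.015), and YSL15 with a floor at the 20th percentile (-0.021). YSL15 was not among the brighter 50% of probe sets and has no value there. Deviations from the group means correlated at r = 0.67 between same-numbered arrays, but the labels do not say that a number marks shared material. With the replicate number as a block the member differences were the same by construction (0.84 for NAS1, 0.67 for NAS2, 0.44 for NAS3), adjusted p 0.999 for NAS1, and 0 probe sets were called. With the block and a trended and robust prior 24 of all probe sets were called and none of the members. No member had a second probe set, so the alternatives on the choice of probe set were not run. Signal over background is unknown, which limits YSL15 most.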

Other observations

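Of the 129 probe sets at least 2-fold higher with glutamine in the first repeat, those with a gene name stood for 16 genes. Those named here were picked after their values were seen. Besides NAS1 and NAS2, only the small subunit of Rubisco (OsrbcS) among these named genes was lower with glutamine in the second repeat. Its log2 differences were 1.08 and -0.24, and its probe set is the one given above as the green shoot marker RBCS. NRT2.2, IRX9L and HSP16.0 were near level in the second repeat, at 0.25, 0.11 and 0.06, after 1.87, 1.07 and 1.07 in the first. Their minus N replicate 1 values were the lowest of the 4 arrays, at 58.0 for NRT2.2, 10.0 for IRX9L and 24.0 for HSP16.0. The other 10 genes were higher with glutamine in both repeats, by at least 0.4 on the log2 scale in the second, among them CIPK14 by 1.44 and 1.17, OsRR6 by 1.35 and 1.65 and CBF3 by 1.91 and 2.21.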
